A study of Mus musculus with 16 samples.

Results

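The carbonic anhydrases described here are 9 mouse genes, Car2, Car4, Car5b, Car6, Car8, Car9, Car12, Car13 and Car14, of 17097 genes measured on arrays of sorted luminal mammary cells. A gene was included through every probe set annotated to its symbol alone, which gave 15 probe sets. The 9 genes were chosen from the carbonic anhydrase family by their signals on these same 16 arrays. Differences between the groups are therefore a description, and the number of members past a threshold is given beside the share of all genes past it.

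Carbonic anhydrases are zinc enzymes that interconvert carbon dioxide and water with bicarbonate and a proton. Family members differ mainly in place: some are cytosolic, some mitochondrial, some secreted, and some are held on the outer face of the plasma membrane, where they act with bicarbonate and lactate transporters in setting the pH around and inside the cell. In the mammary epithelium and its tumours the membrane enzymes CA9 and CA12 are the best known, CA9 as a gene induced by low oxygen and CA12 as one linked to oestrogen receptor signalling, while CA6 is secreted into saliva and milk.

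Total RNA of the luminal population, isolated by fluorescence-activated sorting, was hybridised to 16 Affymetrix mouse arrays, 4 in each of 4 groups. All mice carried MMTV-Cre, a Cre recombinase under the mouse mammary tumour virus promoter, which is active mainly in mammary epithelium. The 9-week-old groups were MMTV-Cre alone (called MMTV-Cre below) and p38a-lox, MMTV-Cre (p38a-lox), in which the floxed gene encodes the stress kinase p38a. The 6-week-old groups were MMTV-Cre, MMTV-PyMT (PyMT), with the polyoma middle T oncogene under the same promoter, and p38a-lox, MMTV-Cre, MMTV-PyMT (p38a-lox PyMT). The labels state the comparisons of p38a-lox with its control within each age. Every difference between arrays with and without PyMT is also a difference between 6 and 9 weeks of age, and the oncogene and age cannot be told apart. The labels give no replicate numbers and do not say whether arrays of a group came from separate mice, so errors measure the spread between arrays, which may be partly technical. Replicate numbers below only name arrays.

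Values are log2 RMA signals, the deposited unit, and a difference of 1 is a doubling of signal. Array medians lay between 4.63 and 4.88, and no pair of arrays was identical. The 7 luminal markers tested, among them the keratins Krt8 and Krt18, had a mean log2 signal of 11.1 to 11.9 on every array. Mapk14, which encodes p38a, was read from 1 of its 6 probe sets, the one of highest mean signal. By that probe set Mapk14 did not follow the p38a-lox label: its log2 signal was 6.53 ± 0.885 in MMTV-Cre, 7.31 ± 0.862 in p38a-lox, 7.20 ± 0.321 in PyMT and 7.23 ± 0.103 in p38a-lox PyMT (mean ± SD, n = 4). It was 7.11, 7.43, 5.56 and 6.02 in MMTV-Cre and 6.79, 6.37, 7.91 and 8.16 in p38a-lox. In each of these groups replicates 1 and 2 have the lower numbers in the sample titles (below 2200), whose meaning the labels do not state, so both p38a-lox arrays lay below both MMTV-Cre arrays in the lower range of title numbers and above them in the higher range. No label or header says where its probes lie relative to the floxed part, so the directions for p38a-lox below rest on the labels. Since sorted cells were measured in bulk, more cells of a type and more RNA per cell cannot be told apart.

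The membrane enzymes Car12 and Car9 were called higher with PyMT in both genotype pairs, and the secreted Car6 in the pair without p38a-lox. The mitochondrial Car5b had estimates of 1.90 and 1.75 in the same direction that were not called. The cytosolic Car2 and Car13 were well measured. Car13 spread widely within groups, whereas Car2 did so in MMTV-Cre (SD 0.954) and less in the other groups (0.274 to 0.395). Car14, Car4 and Car8 had differences of at most 0.35 in every comparison. None of the 9 passed the threshold between p38a-lox arrays and their controls.

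Car12 encodes a transmembrane enzyme whose catalytic domain faces outward. Its log2 signal was 4.42, 4.55, 4.89 and 5.46 in MMTV-Cre and 4.67, 3.67, 4.56 and 4.62 in p38a-lox. With PyMT it was 8.85, 8.38, 9.94 and 8.95, and in p38a-lox PyMT it was 6.86, 9.35, 9.10 and 8.23. The lowest of the 8 arrays with PyMT (6.86) thus lay above the highest of the 8 without (5.46). PyMT exceeded MMTV-Cre by 4.20 ± 0.471 on the log2 scale (estimate ± SE), an 18.4-fold higher signal. Folds here are ratios of deposited signals; the low groups lie near the array medians, and whether those signals are above background was not tested. In p38a-lox PyMT against p38a-lox the difference was 4.01 ± 0.471, or 16.1-fold. The arrays of both comparisons are among those on which the members were chosen. Within the lower and higher range of title numbers PyMT exceeded MMTV-Cre by 4.24 and 4.76. The order of the group means was PyMT 9.03 ± 0.653, p38a-lox PyMT 8.39 ± 1.12, MMTV-Cre 4.83 ± 0.463 and p38a-lox 4.38 ± 0.476 (SD, n = 4), and neighbours in that order overlapped except across the step between arrays with and without PyMT.

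A second Car12 probe set followed the first (r = 0.863 across 16 arrays) with smaller differences. It read 3.71 to 3.93 in MMTV-Cre, 3.88 to 4.48 in p38a-lox, 4.97 to 6.58 in PyMT and 4.999 to 5.63 in p38a-lox PyMT. The differences of 1.94 ± 0.284 and 1.14 ± 0.284 for the PyMT comparisons again came without overlap between the groups compared, although the second was not called over all probe sets. The size of the Car12 difference therefore depends on the probe set more than on the genotype pair.

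Car9 encodes the other enzyme of this type, anchored by a transmembrane segment and known as a target of the hypoxia-inducible factors. Its log2 signal was 4.47, 4.94, 5.70 and 5.77 in MMTV-Cre, and 5.02, 5.36, 4.67 and 5.50 in p38a-lox. It was 6.88, 9.02, 7.03 and 7.20 in PyMT, and 8.43, 7.41, 7.08 and 8.35 in p38a-lox PyMT. All 8 arrays with PyMT lay above all 8 without, with 6.88 against 5.77 at the boundary, and PyMT replicate 2 stood apart at the top. The difference was 2.31 ± 0.456 between PyMT and MMTV-Cre (4.97-fold) and 2.68 ± 0.456 between p38a-lox PyMT and p38a-lox (6.40-fold). Within the lower and higher title ranges the first difference was 2.996 and 1.29, the second of these resting on a single PyMT array, and without PyMT replicate 2 it was 1.82. In p38a-lox PyMT against p38a-lox the ranges gave 2.73 and 2.63.

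Car6 encodes the secreted enzyme of the family. Its log2 signal was 4.58, 4.18, 4.32 and 4.57 in MMTV-Cre and 4.18, 4.17, 5.48 and 5.95 in p38a-lox. In PyMT it was 8.14, 9.996, 5.62 and 8.71, and in p38a-lox PyMT 6.20, 8.89, 7.60 and 8.57. Each PyMT group lay above its own control without overlap, but PyMT replicate 3 (5.62) fell below p38a-lox replicate 4 (5.95). PyMT exceeded MMTV-Cre by 3.71 ± 0.764 (13.1-fold), and p38a-lox PyMT exceeded p38a-lox by 2.87 ± 0.764 (7.29-fold). The SD within PyMT was 1.84 and the spread between the single arrays was the widest of the 9 genes in that group. The first difference was 4.57 in the lower title range and 1.18 in the higher, where PyMT replicate 3 is the only PyMT array.

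Car5b encodes a mitochondrial enzyme, which supplies bicarbonate to biosynthetic reactions in that compartment. Its log2 signal was 8.06, 7.10, 7.39 and 7.66 in MMTV-Cre, 6.48, 6.63, 7.81 and 8.10 in p38a-lox, 9.92, 9.02, 10.05 and 8.82 in PyMT, and 7.67, 9.91, 9.43 and 9.00 in p38a-lox PyMT. PyMT lay above MMTV-Cre on all arrays, whereas p38a-lox PyMT replicate 1 (7.67) fell among the p38a-lox arrays. The differences were 1.90 ± 0.474 (3.74-fold) and 1.75 ± 0.474 (3.36-fold). The second Car5b probe set tracked the first closely (r = 0.966 across 16 arrays), read 4.69 to 5.67 on the arrays without PyMT and 5.38 to 7.80 on those with it, and gave differences of 2.08 ± 0.416 and 1.64 ± 0.416, of which the first was called over all probe sets.

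**Figure D1:**
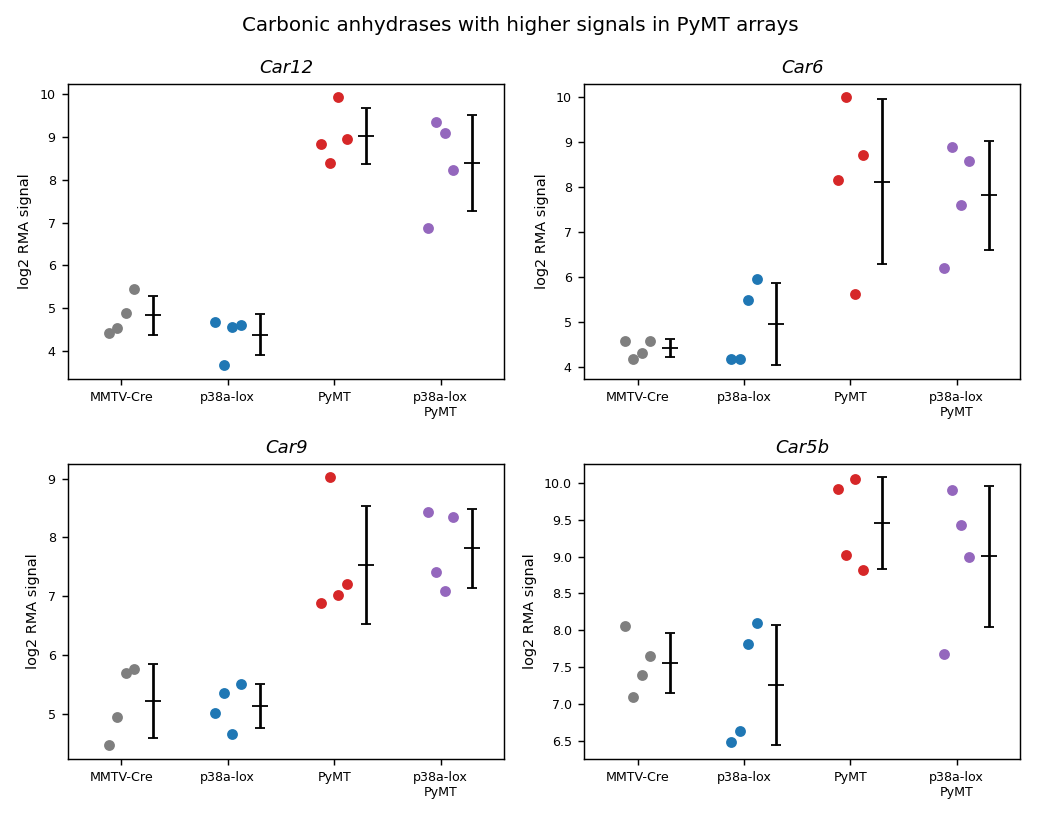
Log2 RMA signal of Car12, Car6, Car9 and Car5b on each of the 16 arrays (points), by genotype group, with the group mean and SD (n = 4). For Car12 the lowest array with PyMT is at 6.86 and the highest without is at 5.46, while Car5b overlaps through p38a-lox PyMT replicate 1 at 7.67.

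The promoters of the 3 genes with the widest PyMT differences are shown because CA9 is known for a hypoxia response element next to its start site and the other genes can be read against it. Each sequence is RefSeq's (GRCm38.p6), 5′ to 3′ on the gene's strand, from 250 bases before the start site to 50 after it, with matches to ACGTG or GCGTG, the core letters of that element, in capitals on either strand. Car12 lies at chr9:66713436-66713735 on the plus strand, Car9 at chr4:43506776-43507075 on the plus strand and Car6 at chr4:150201086-150201385 on the minus strand.
Car12: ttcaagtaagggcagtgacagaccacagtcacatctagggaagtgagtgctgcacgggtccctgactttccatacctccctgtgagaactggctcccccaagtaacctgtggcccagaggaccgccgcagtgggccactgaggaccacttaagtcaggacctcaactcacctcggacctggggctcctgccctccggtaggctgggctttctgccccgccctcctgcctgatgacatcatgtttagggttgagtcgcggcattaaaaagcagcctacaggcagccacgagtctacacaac
Car9: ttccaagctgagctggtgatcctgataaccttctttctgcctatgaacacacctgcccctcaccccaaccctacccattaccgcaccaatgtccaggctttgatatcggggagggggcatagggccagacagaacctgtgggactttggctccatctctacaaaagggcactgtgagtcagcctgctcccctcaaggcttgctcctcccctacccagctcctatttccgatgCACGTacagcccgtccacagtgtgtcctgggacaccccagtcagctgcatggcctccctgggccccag
Car6: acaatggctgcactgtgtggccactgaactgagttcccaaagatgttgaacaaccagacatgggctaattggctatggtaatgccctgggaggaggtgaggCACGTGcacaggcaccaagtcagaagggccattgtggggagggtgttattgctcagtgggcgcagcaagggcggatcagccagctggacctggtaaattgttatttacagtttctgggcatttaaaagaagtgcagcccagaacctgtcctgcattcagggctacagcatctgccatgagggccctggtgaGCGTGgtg
Car9 held 1 match, ACGTG on the opposite strand, which begins 18 bases before the start. Car6 held 3, of which 2 were the overlapping matches of the palindrome CACGTG, beginning at 149 and 148 bases before the start and 1 was GCGTG at 43 bases after it. Car12 held none within this window. Among all 32851 promoters of the same length, 19.6% held ACGTG, 32.4% held GCGTG and 43.8% held either, so a match is common. RefSeq's promoter set held 6 of the 9 members, and Car5b, Car4 and Car14 had 5, 1 and 1 matches. Car2, Car8 and Car13 were the others.

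Car14 encodes the remaining transmembrane enzyme. Its log2 signal stayed between 5.97 and 6.94 on all 16 arrays, with group means of 6.21 ± 0.110 in MMTV-Cre, 6.34 ± 0.258 in p38a-lox, 6.50 ± 0.316 in PyMT and 6.49 ± 0.257 in p38a-lox PyMT (SD, n = 4). The groups overlapped, and the PyMT differences were 0.29 ± 0.179 and 0.16 ± 0.179. Car4, whose enzyme is held on the membrane by a lipid anchor, read 4.34 to 5.03 and differed by less than its SE of 0.150 in all 5 comparisons. Its second probe set lay below the filter value of 3.67 and ran loosely with the first (r = 0.429 across 16 arrays).

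Car2 encodes the abundant, fast cytosolic enzyme. Its log2 signal was 8.12, 6.20, 8.31 and 7.48 in MMTV-Cre, 7.59, 8.14, 8.15 and 8.11 in p38a-lox, 8.61, 8.62, 8.52 and 7.96 in PyMT, and 8.01, 8.90, 8.30 and 8.12 in p38a-lox PyMT. MMTV-Cre replicate 2 lay far below the rest, and the other 15 arrays lay between 7.48 and 8.90, with the groups overlapping. The differences for PyMT were 0.90 ± 0.364 and 0.34 ± 0.364, neither of them called. Without MMTV-Cre replicate 2 the first was 0.46.

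Car13, another cytosolic enzyme, gave 8.70, 7.61, 9.29 and 8.76 in MMTV-Cre and 10.31, 10.77, 8.33 and 9.07 in p38a-lox. It gave 9.58, 9.77, 8.34 and 8.67 in PyMT, and 10.35, 9.53, 9.12 and 9.93 in p38a-lox PyMT. All groups overlapped, and arrays of a group fell apart by title range: p38a-lox exceeded MMTV-Cre by 2.39 in the lower range and was at −0.33 in the higher, for an estimate of 1.03 ± 0.512 over both. Its second probe set showed the same turn, with 1.73 and −0.25. The third, under the filter value, gave 0.53 and 0.03 and did not turn. The 2 other probe sets followed the first at r = 0.907 and r = 0.729 across 16 arrays. Whether the number in the title marks a batch was not tested, because the labels do not say what it is.

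Car8 encodes a relative that has lost a zinc ligand and with it the enzymatic activity, and binds the inositol trisphosphate receptor. It read 4.48 to 4.61 in MMTV-Cre, 4.67 to 5.16 in p38a-lox, 4.49 to 4.90 in PyMT and 4.46 to 4.90 in p38a-lox PyMT. All 4 p38a-lox arrays lay above all 4 MMTV-Cre arrays, with 4.67 against 4.61 at the boundary, and the difference of 0.35 ± 0.138 was not called. The title ranges gave 0.32 and 0.38. A second Car8 probe set, under the filter value, gave 0.04 ± 0.0742 with overlap.

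**Figure D2:**
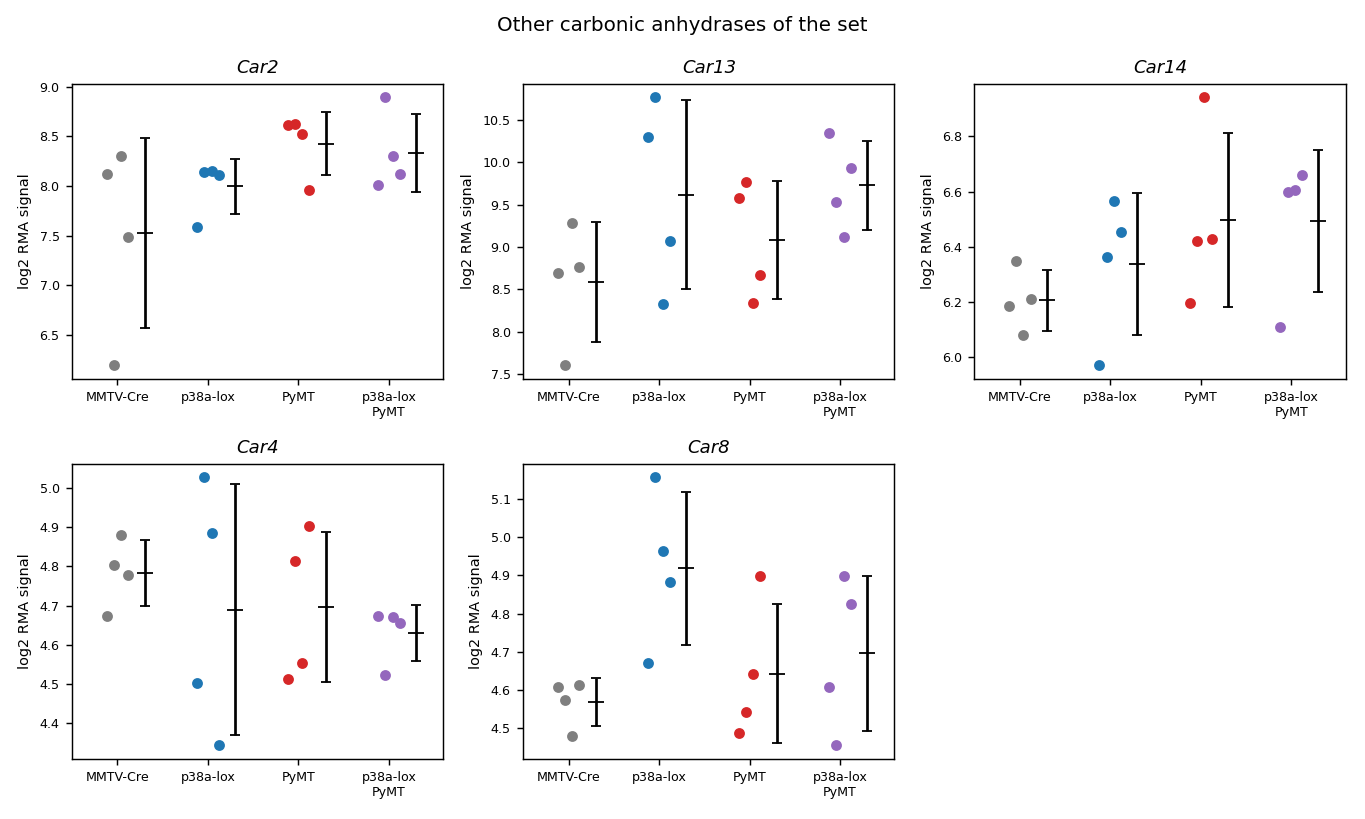
Log2 RMA signal of Car2, Car13, Car14, Car4 and Car8 on each of the 16 arrays (points), by genotype group, with the group mean and SD (n = 4). The vertical axes differ in range: Car4 spans 4.34 to 5.03, while Car13 spans 7.61 to 10.77 with its p38a-lox arrays in separate pairs.

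For the family as a whole, limma was fitted over 14410 genes, with Benjamini-Hochberg adjustment over all of them and a call at an adjusted p below 0.05. All 9 members entered this fit. Between PyMT and MMTV-Cre, 3 of the 9 were called higher (Car12, Car9 and Car6), where 0.881% of all tested genes were. For 4 members the arrays did not overlap in that comparison (Car12, Car9, Car6 and Car5b, all higher), beside 4.44% of all genes. Between p38a-lox PyMT and p38a-lox, 2 members were called higher (Car12 and Car9), beside 0.548% of genes, and 3 did not overlap (Car12, Car9 and Car6), beside 4.41%. Because the members were chosen on these arrays, nothing is read from these shares. The estimate was above 0 for 8 of 9 members in the first comparison (median 0.90, against 0.03 over all tested genes) and for 7 of 9 in the second (0.34 against −0.02). Over all tested genes 55.0% and 46.5% had estimates above 0. No member was called lower in either, where 55 and 33 of the 14410 genes were.

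Car12 was called in both PyMT comparisons under each of the 19 alternative settings tried, with differences of 3.07 to 4.42 and 2.57 to 4.51. The call of Car6 in PyMT against MMTV-Cre ended when MMTV-Cre replicate 1, 3 or 4 or PyMT replicate 1 or 4 was left out, with differences of 3.51 to 3.76, and when only these 2 groups were fitted. That of Car9 ended without MMTV-Cre replicate 1 (2.06) or PyMT replicate 4 (2.42), and when only these groups were fitted, but held without PyMT replicate 2 (1.82). In p38a-lox PyMT against p38a-lox the call of Car9 ended without p38a-lox replicate 3 (2.52) or p38a-lox PyMT replicate 4 (2.50). These differences stayed close to those over all arrays, while the calls were lost. Without p38a-lox PyMT replicate 1, which was the lowest array of its group for Car12, Car6 and Car5b, Car6 (3.40) and Car5b (2.19) were called too, and Car5b was called in PyMT against MMTV-Cre without PyMT replicate 2 (2.05). Car5b was called in that comparison also with the title range as a covariate (2.06), with array weights (2.13) and with the mean of its probe sets (1.99).

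The question the labels state is what p38a-lox changes, without and with PyMT. Neither comparison called any of the 14410 genes in limma, so 0% of genes and 0 of 9 carbonic anhydrases passed. At an unadjusted p below 0.05 there were 690 genes and 1 member (Car8) without PyMT, and 516 genes and 0 members with PyMT. The arrays of p38a-lox and MMTV-Cre did not overlap for 1 member, beside 2.1% of all genes in either direction, and those of p38a-lox PyMT and PyMT for 0 members, beside 2.55%. Without PyMT the estimate for p38a-lox was above 0 for 5 of 9, beside 50.1% of all genes (median 0.13, against 0.0005). With PyMT it was above 0 for 3 of 9, beside 41.8% (median −0.07, against −0.04 over all genes).

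For Car12, Car5b, Car6 and Car9 no p38a-lox difference was called. Between p38a-lox PyMT and PyMT, Car12 gave −0.65 ± 0.471, Car5b −0.45 ± 0.474, Car6 −0.30 ± 0.764 and Car9 0.28 ± 0.456. Leaving out p38a-lox PyMT replicate 1 moved Car12 to −0.14 and Car5b to −0.011. Without PyMT the same genes gave −0.45 ± 0.471, −0.30 ± 0.474, 0.54 ± 0.764 and −0.08 ± 0.456. The title ranges did not share a direction for several of these: Car6 in p38a-lox PyMT against PyMT was −1.41 in the lower range and 2.46 in the higher, and Car5b in p38a-lox against MMTV-Cre was −1.02 and 0.43. The p38a-lox arrays with the low Car5b and Car6 values, replicates 1 and 2, are those with the high Car13 values. They were also the lower pair of their group for Mapk14, while in MMTV-Cre replicates 1 and 2 were the higher pair, as given above.

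The test of whether the p38a-lox difference itself depended on PyMT, the interaction in limma, called 0% of genes and 0 of 9 members. At an unadjusted p below 0.05 it gave 406 genes and 0 members. The estimates ran from −0.84 ± 1.08 for Car6 to 0.36 ± 0.645 for Car9. The SE for Car6 alone is larger than a doubling of signal, and a p above the threshold does not show that the PyMT difference is alike in both genotypes.

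**Figure D3:**
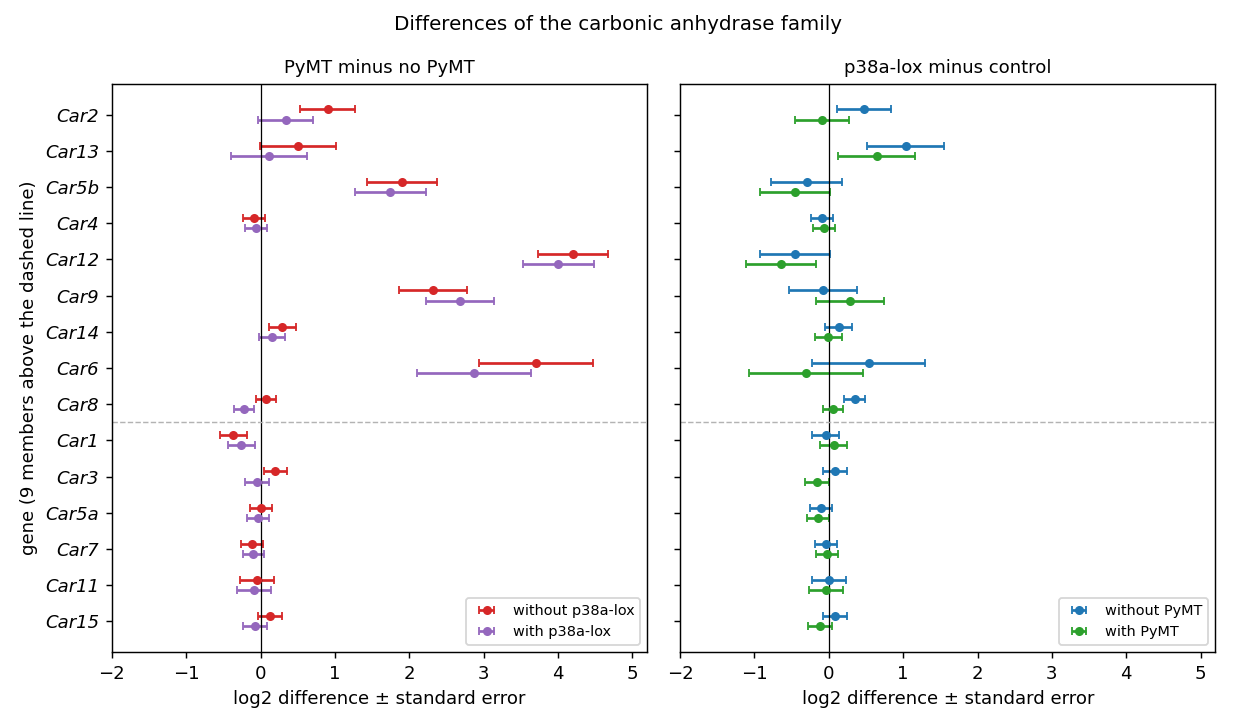
Log2 difference with its SE for the 9 carbonic anhydrases (above the dashed line) and 6 other family members (below it), on the left for arrays with against without PyMT and on the right for p38a-lox against its control. Car12 has the largest PyMT differences of the 9 genes (4.20 and 4.01), and the p38a-lox differences of the 9 lie between −0.65 and 1.03.

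Among the arrays with PyMT the 4 genes did not vary as 1 group. Within those 8 arrays the signals of Car5b and Car12 rose and fell together (r = 0.904), whereas Car9 ran opposite to Car12 (r = −0.692) and Car13 more so (r = −0.843). Without p38a-lox PyMT replicate 1 and PyMT replicate 3, the arrays farthest from the median of Car12, these became 0.597, −0.766 and −0.581 over 6 arrays. Car6 ran with neither Car12 (r = 0.01) nor Car5b (r = 0.08), and its r with Car12 was −0.413 over the same 6 arrays. Within the 8 arrays without PyMT, Car12 had r = 0.353 with Car5b, 0.384 with Car9 and −0.427 with Car13. There Car6 had r = 0.116 with Car12 and 0.728 with Car5b. The points share a normalisation and include both p38a-lox and control arrays, and these correlations are descriptions.

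**Figure D4:**
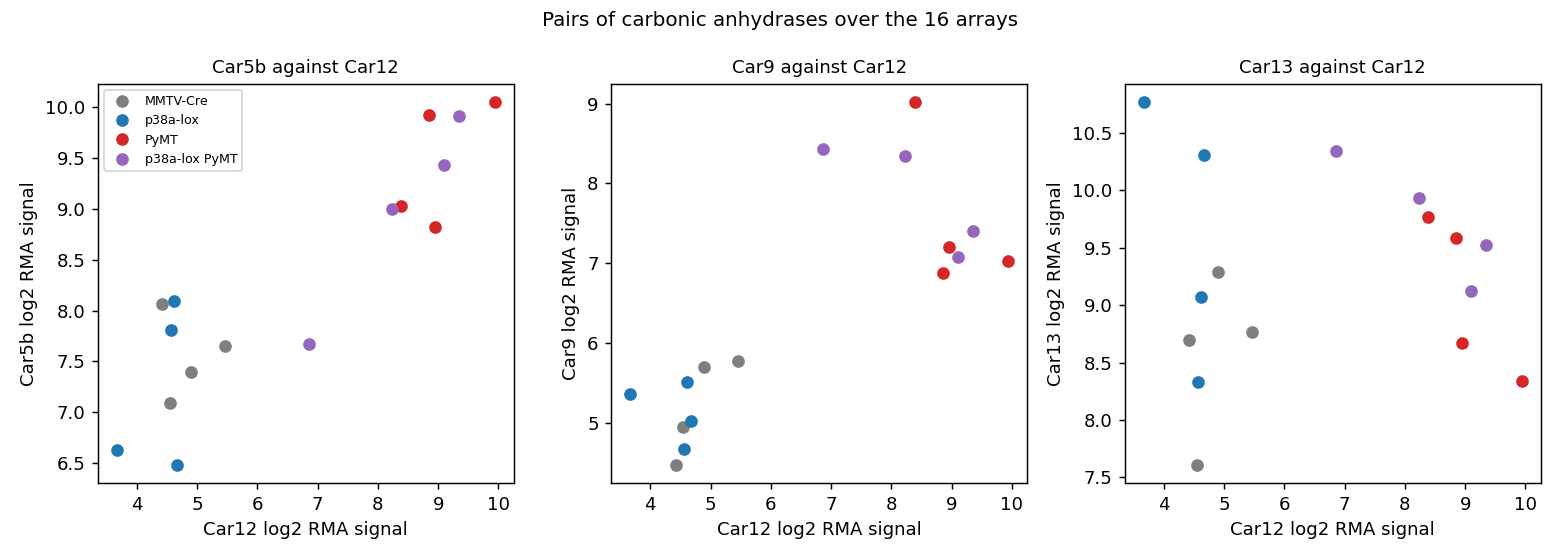
Log2 RMA signals of Car5b, Car9 and Car13 against that of Car12, 1 point per array, coloured by genotype group. Within the 8 arrays with PyMT, Car5b and Car12 lie along a rising line (r = 0.904) and Car9 and Car13 fall as Car12 rises (r = −0.692 and −0.843).

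The genes whose signal was most like the 3 members whose group means ranged widest were found by Pearson's r over all 16 arrays. For Car12 they were Chsy1 (0.977), an enzyme of chondroitin synthesis, St6galnac4 (0.944), a sialyltransferase, and Duoxa1 (0.943), the maturation factor of a dual oxidase. For Car6 they were Tpd52l1 (0.932), Scgb2b27 (0.924), a secretoglobin, and Glrx (0.918), a glutaredoxin, and for Car9 Il24 (0.925), a cytokine, Dcun1d3 (0.911) and Ndfip2 (0.898). Without the 2 arrays farthest from the member's median the 9 values of r lay between 0.843 and 0.969. The 16 arrays fall into those with and without PyMT: within the 8 without, r was 0.05 for Chsy1, 0.656 for Tpd52l1 and −0.04 for Il24, and within the 8 with PyMT it was 0.902, 0.776 and 0.778.

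The family members outside the 9 were left out by the same choice on these arrays, so their values are a description. Of 7 listed, Car1, Car3, Car5a, Car7, Car10, Car11 and Car15, all but Car10 passed the filter on low signal, and 0 of these 6 were called in any of the 5 comparisons. Their PyMT differences lay between −0.37 ± 0.181 (Car1) and 0.20 ± 0.160 (Car3) against MMTV-Cre, with a median of −0.02. For Car1 all 4 PyMT arrays lay below all 4 MMTV-Cre arrays. Car13, Car1, Car3 and Car2 follow each other in that order on chromosome 3 among the protein-coding genes of RefSeq's table, and none of these neighbours was called.

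Genes that work with the enzymes were read from lists of transporters. Of 9 bicarbonate transporters tested, of the Slc4 and Slc26 families, 0 were called in any comparison and the medians for PyMT were 0.07 and −0.06. The lowest p belonged to the anion exchanger Slc4a3 (−0.49 ± 0.227) against MMTV-Cre and to the sodium bicarbonate cotransporter Slc4a4 (−0.28 ± 0.161) against p38a-lox. Of 9 proton and lactate transporters, 0 were called and the medians were 0.07 and 0.21. Slc16a7, a monocarboxylate transporter, had estimates of 0.80 ± 0.293 and 0.97 ± 0.293, and Slc16a1 had 0.83 ± 0.490 in PyMT against MMTV-Cre. Slc16a3, which exports lactate, had 0.66 ± 0.325 in p38a-lox PyMT against p38a-lox. Its group means were 6.28 in MMTV-Cre, 5.52 in p38a-lox, 6.35 in PyMT and 6.19 in p38a-lox PyMT.

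Genes induced by low oxygen were set beside Car9. Of 17 tested of 20 listed, 0 were called between PyMT and MMTV-Cre (11 estimates above 0, median 0.12), and 3 rose between p38a-lox PyMT and p38a-lox (15 above 0, median 0.59). Over all tested genes of that second comparison 0.548% were called higher, 46.5% had estimates above 0 and the median was −0.02. Those 3 were Adm, the vasodilator adrenomedullin (2.46 ± 0.387, limma adjusted p = 0.00990), Slc2a1, the glucose transporter GLUT1 (1.25 ± 0.244, 0.0292), and Vegfa, the angiogenic factor (1.59 ± 0.313, 0.0304), each higher in 4 of 4 arrays than in any p38a-lox array. Between PyMT and MMTV-Cre, Adm (1.21 ± 0.387) and Slc2a1 (0.76 ± 0.244) had the smallest p of the list and were not called. Vegfa averaged 9.43 in PyMT and 9.32 in MMTV-Cre. Between the groups without PyMT, p38a-lox lay below MMTV-Cre for 15 of the 17 (median −0.45, 0 called). Over all tested genes 50.1% had estimates above 0 in that comparison, with a median of 0.0005. Vegfa was at 8.15, 8.03, 7.86 and 7.86 in p38a-lox against 8.70, 10.08, 9.46 and 9.06 in MMTV-Cre. The difference of Car9 between p38a-lox and MMTV-Cre was −0.08 ± 0.456, with 0.49 and −0.65 in the lower and higher title ranges, an error as wide as the list's median shift. PyMT replicate 2, the highest array for Car9, was also the highest of all 16 for Vegfa (10.42), Adm (9.77) and Slc2a1 (12.50). Other arrays kept this order for some of these genes and not for others. For Car9 the next highest were p38a-lox PyMT replicates 1 and 4 (8.43 and 8.35). Their Slc2a1 signals (11.95 and 12.06) were the lowest of the arrays with PyMT. Their Vegfa signals (9.67 and 9.44) lay below PyMT replicate 2 and p38a-lox PyMT replicate 2 (9.80) and above the other arrays with PyMT. Adm (8.81 and 8.62) lay in the middle of those arrays. MMTV-Cre replicate 2 was next highest for Vegfa (10.08), with Car9 at 4.94. Whether low oxygen had a part in the Car9 differences was not tested.

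Marker lists are given beside the PyMT differences. Over all tested genes 55.0% and 46.5% had estimates above 0 (medians 0.03 and −0.02), and 0.881% and 0.548% were called higher. Of 7 luminal markers, 2 and 6 had estimates above 0 (medians −0.08 and 0.13) and 0 were called. The claudin Cldn3 had −0.80 ± 0.287 and −0.88 ± 0.287. Of 8 basal markers tested of 9 listed, 6 and 7 were higher by estimate in the 2 PyMT comparisons (medians 1.28 and 1.61), and 1, the basal transcription factor Trp63, was called in the first (2.20 ± 0.390). Against p38a-lox, p38a-lox PyMT gave estimates for Trp63 (1.77 ± 0.390) and the basal keratin Krt5 (3.01 ± 0.718) that missed the threshold, with limma adjusted p = 0.0504 and 0.0655. The mean of the basal list ranged over 5.76 to 7.57 in MMTV-Cre, 5.37 to 7.23 in p38a-lox, 7.12 to 8.00 in PyMT and 7.33 to 8.14 in p38a-lox PyMT. Of 12 progenitor and secretory markers, the milk protein genes Wap (3.35 ± 0.409) and Lalba (3.21 ± 0.706) rose and Aldh1a3 fell by 1.85 ± 0.416 in PyMT against MMTV-Cre, and 0 were called in p38a-lox PyMT against p38a-lox, where Wap had 1.73 ± 0.409 and Lalba 2.55 ± 0.706. Of these 12, 10 had estimates above 0 in the first comparison (median 0.37) and 5 in the second (median −0.11). The means of that list were 8.53 to 9.60 in MMTV-Cre, 9.15 to 9.66 in p38a-lox, 9.35 to 10.41 in PyMT and 9.19 to 9.89 in p38a-lox PyMT. Of 5 immune markers tested of 8 listed, 3 had estimates above 0 in each PyMT comparison (medians 0.02 and 0.004). Cd68, a macrophage protein, was the only one called, in p38a-lox PyMT against p38a-lox (2.74 ± 0.560). The list mean, which includes Cd68, was 4.94 to 5.52, 4.75 to 5.45, 5.25 to 5.46 and 5.46 to 5.58 in the same order. Endothelial, erythroid, adipocyte, fibroblast and hormone-sensing markers gave 0 calls in the PyMT comparisons. Of 8 hormone-sensing markers 1 and 4 had estimates above 0 (medians −0.82 and 0.01), and of 4 fibroblast markers 3 and 4 did (medians 0.64 and 0.69). The part of these shifts in the carbonic anhydrase differences was not tested.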

How the data were processed

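Signals were deposited on a log2 scale. Per the submitters' processing notes they are RMA summaries. No version, background step or genome build is stated in the labels or the header. Of 45141 probe sets, 28898 were annotated to a single symbol and 551 to several, which were left out. RefSeq's gene table (GRCm38.p6) matched 28689 symbols and changed 0. Probe sets whose names end in _s_at or _a_at (Car4, Car14, Car6) can match several transcripts.

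Here a gene was represented by its single-symbol probe set of highest mean, and kept at or above the 25th percentile (3.67), which left 14410 genes. limma 3.58.1 in R 4.3.3 fitted 4 group means over 16 arrays, with empirical Bayes moderation (12 residual degrees of freedom). A second fit covered all 28898 probe sets without the filter. Scripts were tested on simulated data. Array number, with no counts, limits the precision.

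The members and lists were chosen with earlier results of these data known. Genes named beyond the members were the called genes of each list (up to 4 a comparison) or else its 2 of smallest p, and the 3 genes of highest r to each of the 3 members with the widest range of group means. Alternatives were other filters, probe-set rules, normalisation, weights, a title-number covariate and leaving out arrays. Proteins were not used here.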

Additional observations from a re-analysis of the deposited data

Results flagged for a closer look

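Of 60 sets of 4 arrays, 1 for each probe set and group, 10 had an array whose gap to the next one was larger than Dixon's 95% limit. For independent sets of normally distributed values the limit is passed in about 1 in 20. These sets share arrays, and some are probe sets of the same gene, so nothing is read from that rate. Car9 in PyMT replicate 2 was 9.02, with the next array at 7.20. Car12 in p38a-lox replicate 2 was 3.67, below the next at 4.56, and its second probe set in MMTV-Cre replicate 3 was 3.71, below 3.91. Car2 in p38a-lox replicate 1 was 7.59, below 8.11, and in PyMT replicate 4 it was 7.96, below 8.52. Car14 in p38a-lox PyMT replicate 1 was 6.11, below 6.60. Car4 in p38a-lox PyMT replicate 2 was 4.52, below 4.65. The second Car4 probe set, under the filter value, gave 3.49 in MMTV-Cre replicate 4 (next 3.15), 3.003 in p38a-lox replicate 1 (next 3.33) and 3.47 in p38a-lox PyMT replicate 3 (next 3.03).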

How the results depend on the processing

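No paired analysis was possible because the labels give no replicate numbers. Of 908 member values under the alternatives, 40 changed sign, and none of those was a called value. With array weights Car13 was 0.40 for the interaction and −0.065 for p38a-lox against MMTV-Cre, Car5b was 0.13 for that comparison, and Car8 was −0.018 for PyMT against MMTV-Cre. For p38a-lox PyMT against PyMT, weights gave Car14 0.19, Car4 0.039 and Car6 0.022, and median centring gave Car14 0.028. Without the 2 arrays of lowest correlation, Car4 was 0.0027 in that comparison and 0.053 in p38a-lox PyMT against p38a-lox, and Car8 was −0.012 in PyMT against MMTV-Cre. Leaving out 1 array at a time, ranges that crossed 0 were as follows. For the interaction they were −0.52 to 0.31 (Car12), −0.26 to 0.012 (Car14), −0.087 to 0.14 (Car4) and −0.46 to 0.29 (Car5b). For p38a-lox PyMT against PyMT they were −0.10 to 0.14 (Car14), −0.28 to 0.012 (Car2), −0.13 to 0.0027 (Car4), −1.14 to 0.32 (Car6) and −0.013 to 0.14 (Car8). For p38a-lox PyMT against p38a-lox they were −0.32 to 0.50 (Car13) and −0.18 to 0.053 (Car4). For p38a-lox against MMTV-Cre they were −0.21 to 0.021 (Car4) and −0.33 to 0.10 (Car9), and for PyMT against MMTV-Cre −0.012 to 0.13 (Car8).

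Members called in PyMT against MMTV-Cre were 3, and 1 both with only the groups compared and without the 2 arrays of lowest correlation, and 1 to 4 leaving out 1 array. In p38a-lox PyMT against p38a-lox they were 2, 4 with array weights, and 1 to 4 leaving out 1 array. Genes called in PyMT against MMTV-Cre were 182, but 1268 with weights, 55 with only the groups compared, 111 without the 2 arrays and 51 to 447 leaving out 1. In p38a-lox PyMT against p38a-lox they were 112, 1416 with weights and 26 to 194 leaving out 1. In p38a-lox PyMT against PyMT they were 0, 5 with weights and 0 to 3 leaving out 1. In p38a-lox against MMTV-Cre they were 0, 1 without the filter, 8 with weights and 0 to 4 leaving out 1. The cause was not tested. The interaction already uses all 4 groups, so fitting only the groups compared was not run for it.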
